A study of Mus musculus with 9 samples.

Results

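Fatty acid uptake and oxidation genes were followed in mouse calf muscle after irradiation of 1 hind limb. The set holds 31 genes, chosen by symbol from the 49568 gene rows of the deposited count table, and runs from the capillary lipase that frees fatty acids to the mitochondrial enzymes that degrade them. All 31 were found and all 31 had enough counts to be tested. Total RNA of the gastrocnemius was sequenced from C57Bl6J mice about 8 weeks old, in 3 groups of 3 libraries. RL is the irradiated limb of mice that received 8.2 Gy in each of 3 sessions, begun at 4 weeks of age, and were sampled 3 weeks after irradiation. CL is the opposite limb of the same mice, for which the labels give no dose. CTL is a limb of other mice that received 0 Gy. Mouse numbers in the labels show 6 animals, and the CL and RL libraries that share a replicate number are the limbs of 1 mouse. Whole muscle was profiled, so fewer cells of a type and less RNA per cell cannot be told apart.

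Muscle takes up fatty acids that lipoprotein lipase releases from circulating fat, binds them to a carrier protein and activates them to acyl-CoA. The carnitine shuttle carries acyl-CoA into mitochondria, where beta-oxidation shortens the chain in repeated rounds of dehydrogenation, hydration, dehydrogenation and thiolysis, and the electrons pass to the respiratory chain through the electron transfer flavoprotein. Nuclear receptors of the PPAR family and their coactivator PGC-1alpha drive transcription of many of these genes, and slow and oxidative fibres carry more of this machinery than fast glycolytic fibres.

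Library totals ran from 30836057 to 44587520 counts. Mitochondrially encoded genes took 31.1% to 51.8% of the counts and the 31 genes together took 0.275% to 0.376% of the remaining, nuclear counts. Levels are given as CPM, counts scaled to a common library size and corrected with a trimmed-mean (TMM) factor, which holds the bulk of genes level between libraries. Muscle markers were abundant in every library. The 7 of them, Ckm, Acta1 and Ttn among them, summed to 125699 to 146311 CPM in RL, 128660 to 171481 CPM in CL and 166891 to 184471 CPM in CTL. Ttn made up most of these sums, with 107800 CPM of the 125699 in RL 2. In RL against CTL 0 of 7 were called by edgeR and 1 by DESeq2, against 0.514% and 1.96% of all genes. The median log2 fold change was -0.38, with 6 below 0 and 1, Mb, above. Of the 7, 5 had an unadjusted p under 0.05 by edgeR, against 12.0% of all tested genes. All RL libraries were below all CTL libraries for 5, against 10.2% of all tested genes. CL 1 stood apart: its log2 CPM correlated with those of the other libraries at a median of 0.969, where each other library had a median of 0.979 to 0.987.

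Because PPAR receptors bind a direct repeat of the hexamer AGGTCA with a spacer of 1 base, RefSeq promoters (GRCm38.p6) from 250 bases before to 50 bases after each start were searched on both strands for that element. Lpl, Cpt1b, Acaa2 and Decr1 had no promoter among those and were not searched. The exact repeat was in 0 of 30 promoters of the 27 members found, and in 0.0396% of all 32851 promoters. With up to 1 mismatch in each hexamer it was in the promoters of 3 members, Cd36, Etfa and Slc25a20, and in 2.40% of all promoters. The ERR element TCAAGGTCA was in 0 of the 30 and in 0.423% of all. The E-box CACGTG was in 1, a promoter of Slc27a1, and in 7.15% of all. The start of that promoter lies 1.71 kb downstream of the 5′ end of the GENCODE gene model of Slc27a1. Other promoters of Slc27a1 among the 30 did not hold the E-box. Cd36, Slc25a20 and Etfa stand at different steps of the route: entry at the cell surface, entry into the mitochondrion and electron transfer. The 3 stretches shown are all the matches to the repeat, with up to 1 mismatch in each hexamer, in the members' promoters. Each is written 5′ to 3′ on the strand of its gene, with the repeat in capitals. In Cd36 and Etfa it lies on the opposite strand, so that the capitals read as its reverse complement. Relative to the RefSeq start used, at position 0, the capitals begin at -63 in Cd36 (chr5:17835939-17835967, minus strand), at -77 in Etfa (chr9:55512300-55512328, minus strand) and at 6 in Slc25a20 (chr9:108662134-108662162, plus strand). The start used for Cd36 lies 52.9 kb downstream of the 5′ end of its GENCODE gene model, and that for Eci2 lies 33.0 kb downstream. Other starts of these genes were not searched.
Cd36: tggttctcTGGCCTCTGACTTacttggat
Etfa: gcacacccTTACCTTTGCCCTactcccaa
Slc25a20: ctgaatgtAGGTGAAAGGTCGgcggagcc
A match describes letters only, and none of these 3 genes passed the test in any comparison given below.

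Levels between genes are compared as CPM per kilobase of annotated exon (GENCODE vM21, GRCm38). Fabp3, the fatty acid binding protein of heart and muscle, was the most abundant member, at 74.3 ± 4.65 in RL, 65.4 ± 18.5 in CL and 61.3 ± 11.7 in CTL (SD, n = 3 each). It was followed in CTL by Cd36, a fatty acid translocase, at 46.6 ± 2.85, by Pdk4 at 42.7 ± 10.2 and by Acadvl at 40.1 ± 3.20 CPM per kilobase (SD, n = 3), and neighbours among these 3 did not differ beyond their spread. The lower end held the receptor gene Ppara at 2.03 ± 0.509, Acot2 at 1.66 ± 0.397, Cpt1a at 1.26 ± 0.0980, Ppard at 0.569 ± 0.135 and Cpt1b at 0.258 ± 0.0275 CPM per kilobase in CTL (SD, n = 3).

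**Figure D1:**
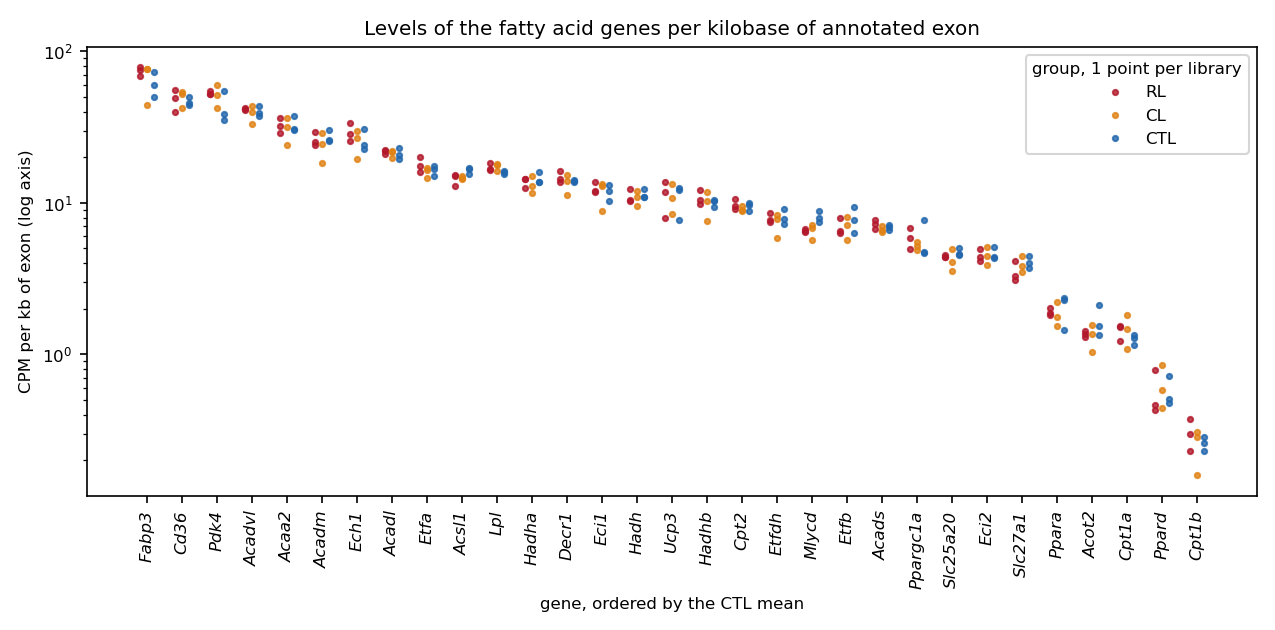
Level of each of the 31 genes in CPM per kilobase of annotated exon (log axis), 1 point per library, with RL left of CL and CL left of CTL, genes ordered by the CTL mean. Fabp3 is at the top with a CTL mean of 61.3 and Cpt1b is at the bottom with a CTL mean of 0.258.

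Cpt1b stood last although it encodes the carnitine palmitoyltransferase known as the muscle form, and Cpt1a, the liver form, was counted at a higher level per kilobase. In the annotation 81.4% of the exon bases of Cpt1b (chromosome 15, 89416405 to 89425863, minus strand) also belong to exons of Gm44502, a gene on the same strand from 89416405 to 89429696 that RefSeq also calls Chkb-Cpt1b. Gm44502 itself was not analysed here. Etfb, a subunit of the electron transfer flavoprotein, shares 58.2% of its exon bases with genes on its own strand, and Gm45233, which covers 53.0%, had 0 counts in every library. No other member shared exon bases with a gene on its strand. On the opposite strand, 42.9% of the exon bases of Acadvl lie in Dvl2, which had 1.58 to 2.54 CPM, and 19.6% of those of Fabp3 in Zcchc17 (12.1 to 15.6 CPM) and Gm10570 (at most 0.201 CPM). How reads in shared exons were assigned is not given in the sources used here, and the part of this overlap in the low levels was not tested. The library kit keeps strand, but whether the counting used it is not given, so the values of these 4 genes are uncertain.

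Irradiated limbs were compared with limbs of unirradiated mice to ask whether these genes differed 3 weeks after the dose. No member passed by edgeR's quasi-likelihood test. Of the 31 members, 0 were higher and 0 lower at a Benjamini-Hochberg adjusted p under 0.05 over all 14986 tested genes, of which 77 were called, 0.514%. An unadjusted p under 0.05 was reached by 1 member, Mlycd, against 12.0% of all tested genes. DESeq2, limma-voom and the authors' deposited table also called 0 of 31, where DESeq2 called 1.96% of all genes with an adjusted p and 2.22% were called in the authors' deposited table. The smallest adjusted p of a member was 0.341 by DESeq2 and 0.569 in the authors' deposited table. The fitted log2 fold changes ran from -0.29 to 0.31, with 17 above 0 (48.6% of all tested genes) and 14 below (51.4%). Their median was 0.043, against -0.0083 over all tested genes. Without CTL 2, 23 members were above 0 and 8 below, where 47.7% of all tested genes were above. Without CTL 1, 13 members were above 0 and 18 below, where 49.5% of all tested genes were above.

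The intervals show how large a change these libraries leave room for. The 95% interval of the log2 fold change lay inside 1.5-fold in either direction for 26 of 31 members, and for 53.2% of all tested genes. The 5 others were Fabp3, Acot2, Cpt1b, Ppard and Pdk4, whose bounds reached as low as -0.71 (Acot2) and as high as 0.86 (Cpt1b). A p that misses the threshold does not show that the groups are alike, and the interval of each member but Mlycd included 0.

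**Figure D2:**
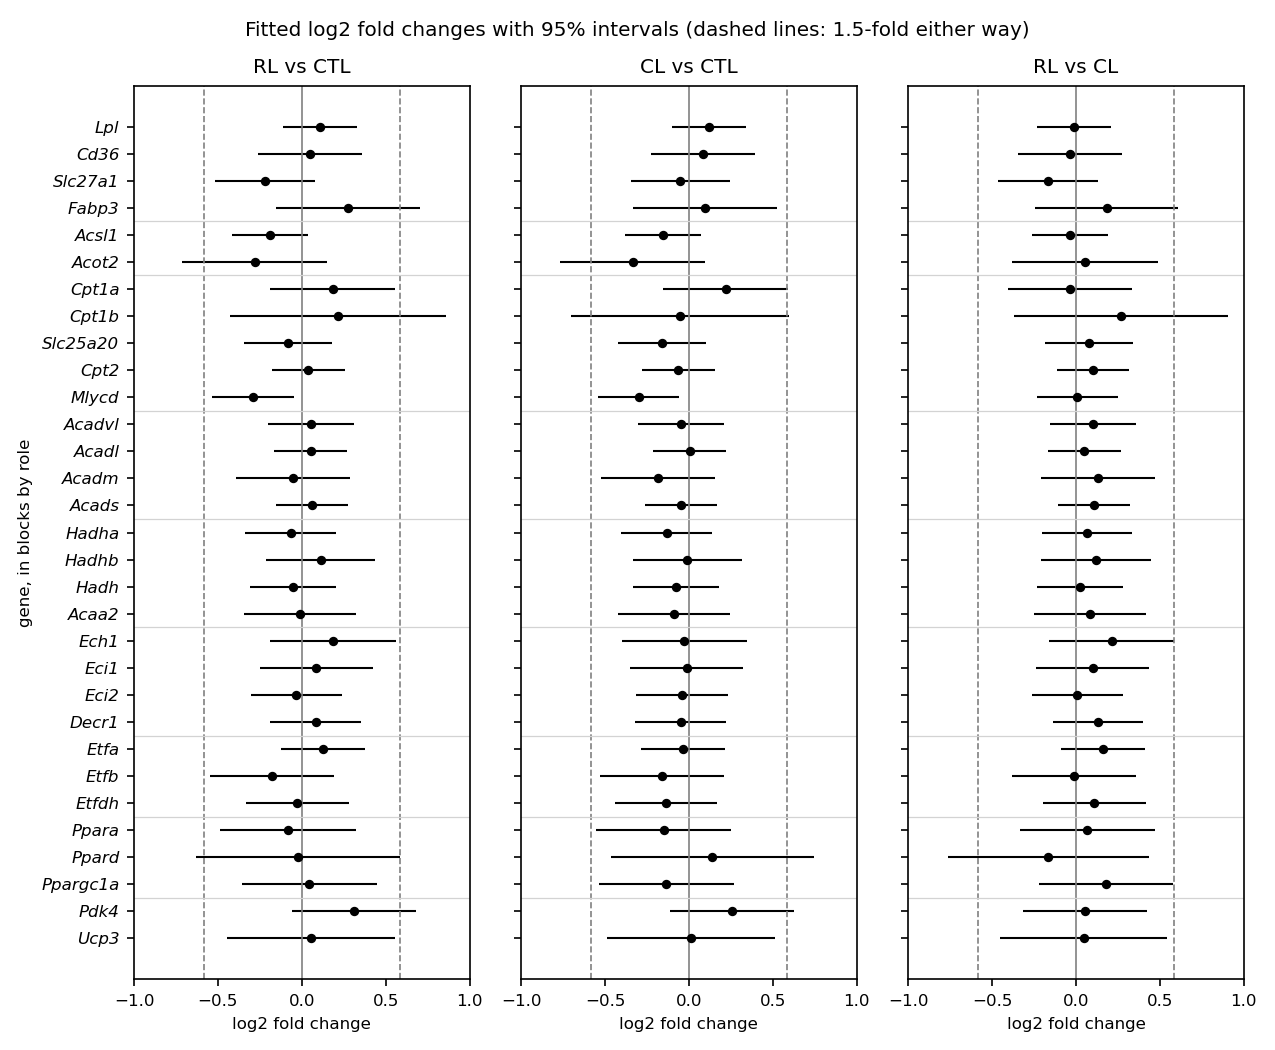
Fitted log2 fold change (point) and 95% interval (line) of the 31 genes in RL vs CTL, CL vs CTL and RL vs CL, genes in blocks by role, dashed lines at 1.5-fold in either direction. In RL vs CTL 26 intervals stay between the dashed lines, and Mlycd is the gene whose interval lies wholly below 0 there and in CL vs CTL.

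At the cell surface, Lpl encodes lipoprotein lipase, which muscle secretes to the capillary wall. It had 171, 193 and 177 CPM in RL 1, 2 and 3, 189.7, 185 and 170.1 CPM in CL, and 163, 169 and 169 CPM in CTL. All RL and all CL libraries were above all CTL libraries, by a narrow margin. Its fitted log2 change, RL over CTL, was 0.11 ± 0.10 (SE, adjusted p = 0.738, edgeR). Groups that do not overlap were found for 4 of 31 members (Lpl, Acsl1, Slc25a20 and Mlycd) and for 20.7% of all tested genes in this comparison. Cd36 had 143, 199.7 and 175 CPM in RL, 151, 193 and 187 CPM in CL, and 179, 159 and 164 CPM in CTL. The RL libraries spanned all CTL libraries, and the log2 fold change was 0.047 ± 0.14 (SE, adjusted p = 0.934, edgeR). Slc27a1, the fatty acid transport protein FATP1, had 18.1, 24.1 and 19.1 CPM in RL, 22.2, 26.1 and 20.5 CPM in CL, and 21.7, 26.1 and 23.5 CPM in CTL. RL 1 and RL 3 were the lowest of the 9 libraries while RL 2 lay within the CTL range, and the log2 fold change was -0.22 ± 0.14 (SE, adjusted p = 0.582, edgeR). Fabp3 was fitted at 0.28 ± 0.20 on the log2 scale for RL over CTL (SE; adjusted p = 0.640, edgeR).

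Activation of fatty acids to acyl-CoA is the work of Acsl1, the main long-chain synthetase of muscle. It had 157, 136 and 159 CPM in RL, 152, 153 and 159 CPM in CL, and 163, 178 and 175 CPM in CTL. All RL and all CL libraries were below all CTL libraries. Its fitted log2 change, RL over CTL, was -0.19 ± 0.10 (SE, adjusted p = 0.519, edgeR), and 0.013 when scaled by nuclear totals without TMM. Acot2, a mitochondrial thioesterase that cleaves acyl-CoA again, was fitted at -0.28 ± 0.20 on the log2 scale for RL over CTL (SE; adjusted p = 0.638, edgeR) at 2.86 to 3.15 CPM in RL and 2.93 to 4.62 CPM in CTL.

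Mlycd had the smallest edgeR p of the members. It encodes malonyl-CoA decarboxylase, which removes malonyl-CoA, the inhibitor of carnitine palmitoyltransferase 1, and lies on chromosome 8, 119394878 to 119411102, plus strand. Mlycd had 19.9, 19.1 and 19.5 CPM in RL, 16.8, 20.2 and 21.1 CPM in CL, and 22.0, 26.0 and 23.5 CPM in CTL. Every RL and every CL library was below every CTL library, and the RL libraries lay close together. Its fitted log2 change, RL over CTL, was -0.29 ± 0.11 (SE), with a 95% interval of -0.53 to -0.048, an unadjusted p of 0.0228 and an adjusted p of 0.308 by edgeR. Its adjusted p was lowest, at 0.150, when CL 1 was left out of the fit, and it was not called under any alternative. Scaled by nuclear totals without TMM, its log2 fold change was -0.087. Of the shuttle itself, Slc25a20, the carnitine-acylcarnitine translocase, had 21.3 to 21.8 CPM in RL and 21.8 to 24.2 CPM in CTL, and the groups did not overlap. Its log2 fold change was -0.083 ± 0.12 (SE, adjusted p = 0.849, edgeR). Cpt2, which rebuilds acyl-CoA inside the mitochondrion, had one of 0.039 ± 0.099 and Cpt1a one of 0.18 ± 0.17 (SE, adjusted p of 0.924 and 0.745, edgeR). Cpt1b had 1.25, 1.00 and 0.776 CPM in RL, 0.534, 1.04 and 0.962 CPM in CL, and 0.878, 0.957 and 0.773 CPM in CTL. The ranges overlapped, and at these low counts the interval of its log2 fold change, -0.43 to 0.86, was the widest among the members.

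**Figure D3:**
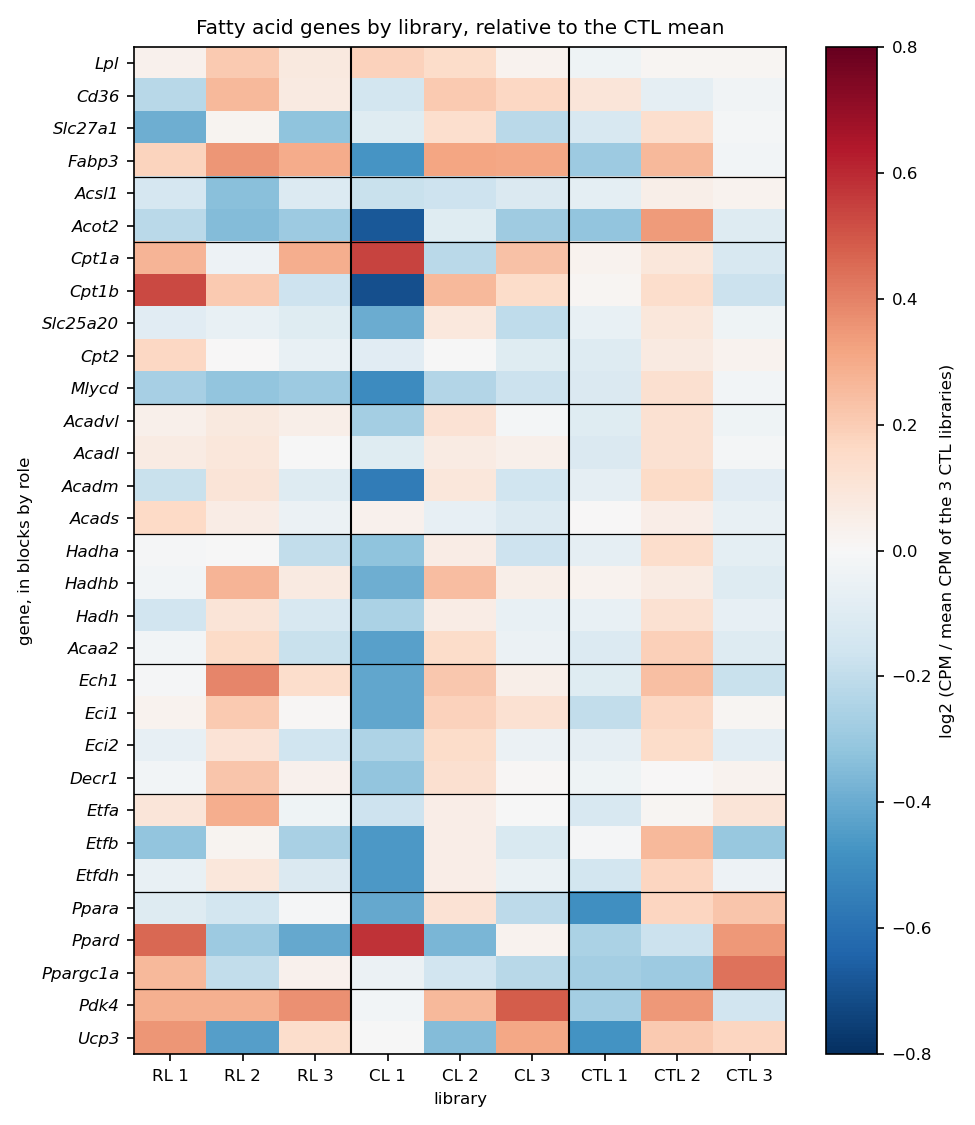
Log2 ratio of each gene's CPM to its mean over the 3 CTL libraries, in 9 libraries (RL, then CL, then CTL) and 31 genes in blocks by role. The CL 1 column is blue, below the CTL mean, for 27 of 31 genes. The rows of Mlycd, Acsl1 and Acot2 are blue in all RL and CL libraries.

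The enzymes of the beta-oxidation spiral were close to level between RL and CTL. For the 4 acyl-CoA dehydrogenases, which act on very long (Acadvl), long (Acadl), medium (Acadm) and short chains (Acads), log2 fold changes ran from -0.053 to 0.060. Acads had 17.5, 16.3 and 15.2 CPM in RL, 16.0, 15.0 and 14.5 CPM in CL, and 15.7, 16.2 and 15.0 CPM in CTL. These ranges overlapped in every comparison (RL against CTL, adjusted p = 0.866, edgeR). For the later steps, the subunits of the trifunctional protein Hadha and Hadhb, the dehydrogenase Hadh and the thiolase Acaa2, log2 fold changes ran from -0.067 to 0.11. Hadhb had 65.1, 79.6 and 69.3 CPM in RL, 50.4, 78.2 and 68.2 CPM in CL, and 67.4, 69.1 and 61.6 CPM in CTL. Its lowest value was that of CL 1 and its highest that of RL 2 (RL against CTL, adjusted p = 0.831, edgeR). Hadha and Hadhb, which lie head to head on chromosome 5, had log2 fold changes of -0.067 ± 0.12 and 0.11 ± 0.15 (SE).

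Unsaturated chains need further isomerases and reductases, and the log2 fold changes of Ech1, Eci1, Eci2 and Decr1 ran from -0.034 to 0.19. Ech1, a dienoyl-CoA isomerase, had 58.6, 77.4 and 65.0 CPM in RL, 44.3, 68.3 and 60.8 CPM in CL, and 55.0, 69.6 and 52.0 CPM in CTL. The RL range reached above the CTL range and still overlapped it (log2 fold change 0.19 ± 0.17 SE, adjusted p = 0.738, edgeR). Of the electron transfer genes, Etfa, the alpha subunit of the flavoprotein, had 32.2, 36.9 and 29.4 CPM in RL, 26.9, 31.2 and 30.1 CPM in CL, and 27.6, 30.5 and 32.3 CPM in CTL. RL 2 was above all other libraries, and the log2 fold change was 0.12 ± 0.11 (SE, adjusted p = 0.738, edgeR). Etfb and the oxidoreductase Etfdh, which hands the electrons to ubiquinone, had log2 fold changes of -0.18 ± 0.17 and -0.027 ± 0.14 (SE, adjusted p of 0.752 and 0.964, edgeR).

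Among regulators, Ppargc1a, which encodes PGC-1alpha, had 45.2, 32.9 and 38.6 CPM in RL, 36.6, 34.0 and 32.4 CPM in CL, and 31.3, 30.9 and 51.0 CPM in CTL. CTL 3 was above all RL and CL libraries, and the spread within CTL, a coefficient of variation of 30.5%, was the highest of the members in that group. Its fitted log2 change, RL over CTL, was 0.043 ± 0.18 (SE, adjusted p = 0.955, edgeR). The receptor gene Ppara had 7.24, 7.02 and 7.74 CPM in RL, 5.86, 8.44 and 6.73 CPM in CL, and 5.54, 8.76 and 9.07 CPM in CTL. All 3 RL values lay within the CTL range (log2 fold change -0.084 ± 0.19 SE, adjusted p = 0.909, edgeR). Ppard was fitted at -0.023 ± 0.28 on the log2 scale for RL over CTL (SE; adjusted p = 0.987, edgeR) and had the highest coefficient of variation of the members within RL, 34.8%.

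Pdk4, the kinase that shuts pyruvate dehydrogenase when fat is burned, had the highest fitted fold change of the members in RL against CTL. It had 183, 183 and 193 CPM in RL, 148, 179.7 and 210.2 CPM in CL, and 124, 191 and 135 CPM in CTL. CTL 2 stood with the RL libraries while CTL 1 and CTL 3 were lower, so the groups overlapped. The log2 fold change was 0.31 ± 0.17 (SE, adjusted p = 0.516, edgeR), with 0.19 when CTL 1 was left out and 0.52 when CTL 2 was. Ucp3, the uncoupling protein of muscle mitochondria, had 43.3, 25.0 and 37.2 CPM in RL, 33.8, 26.6 and 41.9 CPM in CL, and 24.3, 39.1 and 38.1 CPM in CTL. Each group held a library near 25 CPM or a little above and another near 40, and the log2 fold change was 0.056 ± 0.23 (SE, adjusted p = 0.955, edgeR).

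CL against CTL asks whether these genes differed in the opposite limb, away from the irradiated muscle. By edgeR 0 of 31 members and 0 of all 14986 tested genes (0%) were called. An unadjusted p under 0.05 was reached by 1 member and by 6.65% of all tested genes. DESeq2, which called 0.122% of all genes, and limma-voom also called 0 members. So did the authors' deposited table, which called 0.0628% of all, with a smallest adjusted p of 0.948. Mlycd was again the member with the smallest p, with a fitted log2 change of -0.30 ± 0.11 (SE, unadjusted p = 0.0197, adjusted p = 0.692, edgeR). Its CL and CTL libraries did not overlap, nor did those of Lpl (log2 fold change 0.12 ± 0.10 SE) and Acsl1 (-0.15 ± 0.10 SE), 3 of 31 members against 9.4% of all tested genes. Of these, 1 was higher in CL (3.9% of all) and 2 were lower (5.5%). The interval lay inside 1.5-fold for 26 of 31 members and 56.6% of all tested genes. This comparison shares its CTL libraries with that of RL and CTL, and the CL and RL limbs are of the same mice. The values of these 3 genes in both comparisons are therefore not independent. The members' log2 fold changes ran from -0.34 (Acot2) to 0.26 (Pdk4), 8 were above 0 (49.1% of all tested genes) and 23 below (50.9%), and their median was -0.049. Without CL 1 the median was 0.015, with 16 above 0 and 15 below. Leaving out CTL 2 instead also gave a median of 0.015, with 16 above 0 and 15 below.

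Both limbs of the irradiated mice were also compared with each other, which tests directly whether the irradiated limb departs from its partner. Without regard to the pairing 0 of 31 members were called by edgeR, where 11 of all tested genes were, 0.0734%, and 0 members had an unadjusted p under 0.05, against 4.26% of all tested genes. With the mouse as a block the count over all genes was 64 and that of called members was 0, with 1 member at an unadjusted p under 0.05, against 7.52% of all genes tested there, and a smallest adjusted p of 0.663 for Ech1 at a log2 fold change of 0.23. DESeq2, limma-voom and the authors' deposited table also called 0 members, where DESeq2 called 0.219% of all genes and 0.256% were called in the authors' deposited table. Of the members 0 had groups that did not overlap, against 8.3% of all tested genes (3.94% higher and 4.36% lower in RL). The interval lay inside 1.5-fold for 27 of 31, against 58.6% of all. Fitted log2 fold changes were above 0 for 24 of 31 members, against 48.3% of all tested genes, and below 0 for 7 (51.7% of all), with a median of 0.067. The 3 mice were unlike in this. In the mouse of RL 1 and CL 1, 26 of 31 members were higher in RL, with a median log2 ratio of RL over CL of 0.30. In the mouse of RL 2 and CL 2, 18 of 31 were higher in RL at a median of 0.013, and in that of RL 3 and CL 3, 13 of 31 at a median of -0.030. In every mouse 6 members were higher in RL, and 1, Slc27a1, was lower in RL in every mouse. These counts by mouse are not set against all tested genes here, so they are not read as particular to the members. Without CL 1 the fitted median was -0.0093, with 13 above 0 and 18 below. The difference of Mlycd between the limbs was 0.0087 ± 0.11 (SE, log2), with a 95% interval of -0.23 to 0.25.

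Further genes of the same route, 70 in 6 lists, were read beside the members. In RL against CTL 0 of the 70 passed by edgeR in either direction, with 7 at an unadjusted p under 0.05, near the 12.0% of all tested genes, and a median log2 fold change of -0.033. Ppargc1b, a coactivator related to PGC-1alpha, had the smallest edgeR p of them, at 5.29 ± 0.677 CPM in RL libraries, against 7.25 ± 0.897 CPM in CTL libraries (SD over 3 a group). Its log2 fold change was -0.45 ± 0.14 (SE, adjusted p = 0.177, edgeR), and its groups did not overlap. Of the 70, 2 were higher and 5 lower in RL without overlap, against 10.5% and 10.2% of all tested genes. Nrip1, a corepressor of nuclear receptors, was fitted at -0.46 ± 0.18 on the log2 scale for RL over CTL (SE; adjusted p = 0.334, edgeR). These belong to the 16 PPAR partners and coregulators, of which 0 passed. Ucp2, an uncoupling protein that is also abundant in immune cells, had 10.3 ± 2.72 CPM in RL libraries, against 5.36 ± 0.954 CPM in CTL libraries (SD over 3 a group). The fitted log2 change of 0.94 ± 0.31 (SE) missed the threshold by edgeR (adjusted p = 0.228) and by DESeq2 (adjusted p = 0.0874, the smallest of the 70 by that tool). Summed macrophage markers were 137 to 196 CPM in RL and 69.7 to 102 CPM in CTL, and the part of such cells in the value of Ucp2 was not tested. Pdk2, another pyruvate dehydrogenase kinase, was fitted at -0.32 ± 0.13 on the log2 scale for RL over CTL (SE; adjusted p = 0.331, edgeR), and 0 of 9 fuel switch relatives passed.

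In the list of further uptake and activation genes 0 of 9 passed. Gpihbp1, which anchors lipoprotein lipase to capillary endothelium, had 6.77 ± 1.17 CPM in RL, 6.46 ± 0.894 in CL libraries and 8.88 ± 1.52 in CTL libraries (SD over 3 a group). Its log2 fold change was -0.39 ± 0.17 in RL against CTL (SE, adjusted p = 0.380, edgeR). Acsl6, a further acyl-CoA synthetase, had one of -0.22 ± 0.12 (SE, adjusted p = 0.521, edgeR). Among 14 carnitine and mitochondrial oxidation genes 0 passed, with Crat, the carnitine acetyltransferase, at -0.31 ± 0.13 and Acad10 at -0.40 ± 0.19 (SE, adjusted p of 0.376 and 0.441, edgeR). Peroxisomal genes gave 0 of 11, with Scp2, a lipid carrier, at 0.18 ± 0.11 and the multifunctional enzyme Hsd17b4 at -0.17 ± 0.11 (SE, adjusted p of 0.566 and 0.590, edgeR). Lipid droplet genes gave 0 of 11, with Dgat2, which makes triglyceride, at -0.36 ± 0.15 and Abhd5, the activator of triglyceride lipase, at 0.19 ± 0.11 (SE, adjusted p of 0.374 and 0.543, edgeR). In CL against CTL and in RL against CL 0 of the 70 genes passed by edgeR, with smallest adjusted p of 0.692 and 0.999, and 5 and 1 of them had an unadjusted p under 0.05, where 6.65% and 4.26% of all tested genes did. DESeq2 called 0 of the 70 in each comparison.

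Markers of fast glycolytic fibres are set beside the members here as a description. The 7 markers are the contractile genes Myh4, Actn3 and Mybpc2, the calcium handling genes Pvalb and Atp2a1, and Pfkm and Pygm, enzymes of glycolysis and glycogen breakdown. They summed to 42099 to 54424 CPM in RL, 49836 to 52627 CPM in CL and 58617 to 64621 CPM in CTL. Myh4 made up most of these sums, with 33695 CPM of the 54424 in RL 1. In RL against CTL their median log2 fold change was -0.41. By edgeR 0 of 7 were called and by DESeq2 3, against 0.514% and 1.96% of all genes. The 7 skeletal muscle markers had a median of -0.38 there, so lower values were not particular to the fast fibre list. In each list 5 of 7 had all RL libraries below all CTL libraries, against 10.2% of all tested genes. The 31 fatty acid genes summed to 1729 to 1863 CPM in RL, 1511 to 1853 CPM in CL and 1624 to 1869 CPM in CTL. These sums overlapped in every comparison (RL against CTL, two-sided exact permutation test p = 0.6, with 0.1 the smallest p possible). The 12 nuclear genes of mitochondrial content, such as Cs and Sdha, summed to 2724 to 2908 CPM in RL and 2878 to 3212 CPM in CTL. The difference between the fatty acid genes and these lists was not tested.

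**Figure D4:**
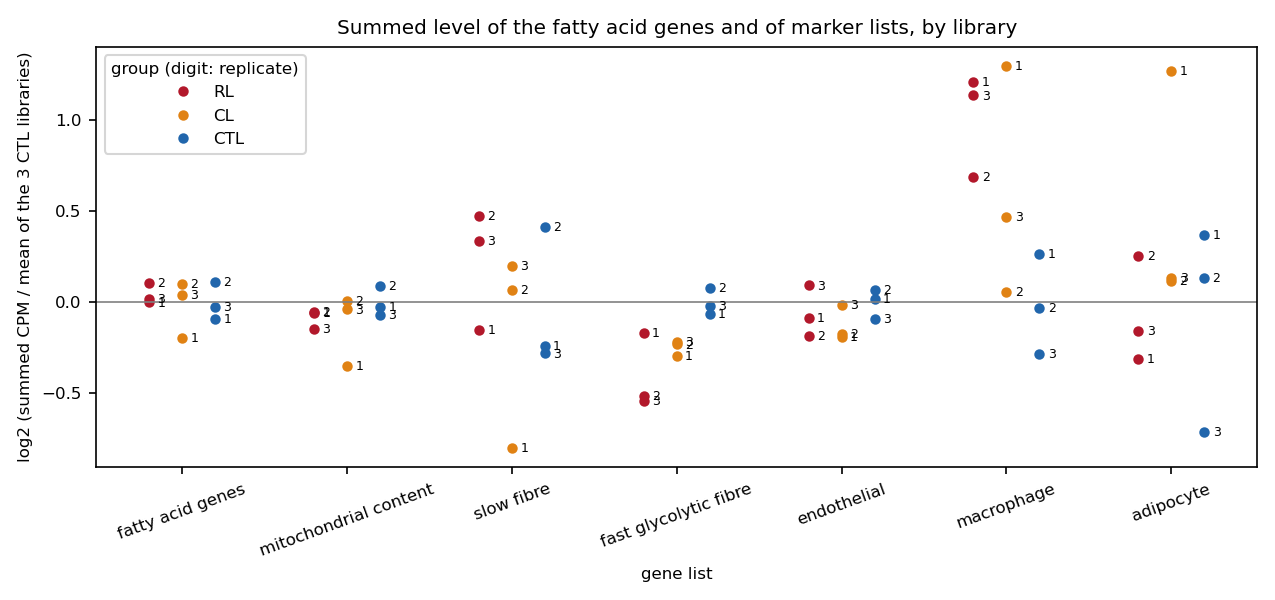
Summed CPM of the 31 fatty acid genes and of 6 marker lists in each library, as log2 of the ratio to the mean of the 3 CTL libraries, with RL left of CL and CL left of CTL and the digit giving the replicate. CL 1 is lowest for the fatty acid genes, the mitochondrial content genes and the slow fibre genes, and highest for the adipocyte and macrophage genes.

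CL 1 was the library with the lowest value for 18 of 31 members, and 27 of 31 members were below the CTL mean in it, at a median log2 ratio of -0.27. CTL 2 had the highest value for 13 of 31 members, and 28 of 31 were above the CTL mean in it. No such counts over all tested genes are given here, so these are not read as particular to the members. Over all tested genes CL 1 had the lowest median correlation with the other libraries, 0.969. CL 1 also had the lowest summed slow fibre markers, 198 CPM against 284 to 479 CPM in the others, and the lowest summed mitochondrial content genes. It had the highest summed adipocyte markers, 309.7 CPM against 78.2 to 166 CPM. Its summed macrophage markers, 209 CPM, were also the highest, against 69.7 to 196 CPM, with the 196 in RL 1 of the same mouse. Cpt1a and Ppard were the 2 members with their highest value in CL 1, at 13.9 and 6.39 CPM. The part of other cell types or of fibre types in the low values of CL 1 was not tested. The median coefficient of variation over the members was 9.04% in RL, 16.9% in CL and 9.15% in CTL, and it was 6.55% over CL 2 and CL 3 alone.

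Endothelial markers, Gpihbp1 among them, summed to 192 to 233 CPM in RL, 191 to 216 CPM in CL and 205 to 229 CPM in CTL. Of the 9, 0 were called in RL against CTL by edgeR. DESeq2 called 1, Tek, lower in RL (log2 fold change -0.58, adjusted p = 0.0161), and 1.96% of all genes. The list was split in direction by edgeR's fit, with 6 below 0 and 3 above, from -0.59 (Tek) to 0.37 (Emcn). Adipocyte markers, among them Adipoq and Plin1, were counted in every library and summed to 103 to 153 CPM in RL, 139 to 309.7 CPM in CL and 78.2 to 166 CPM in CTL, with 0 of 9 called in RL against CTL. Slow fibre markers summed to 311 to 479 CPM in RL, 198 to 396 CPM in CL and 284 to 459 CPM in CTL, and 0 of 8 were called. The oxidative fast fibre markers Myh1 and Myh2 summed to 1693 to 2532 CPM in RL, 1888 to 2121 CPM in CL and 1914 to 2351 CPM in CTL, and 0 of 2 were called. Macrophage markers were higher in RL than in CTL for 8 of 8 by fitted fold change. Of these, 1 was called by edgeR and 4 by DESeq2, against 0.514% and 1.96% of all genes.

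The scale decides how the sum of the members reads. As a share of nuclear counts with no TMM factor, the 31 genes took 0.349% ± 0.0277 in RL, 0.319% ± 0.00975 in CL and 0.294% ± 0.0185 in CTL (SD, n = 3 each). On that scale RL and CTL did not overlap (two-sided exact permutation test p = 0.1, the smallest p possible). It also moved the median of all tested genes to a log2 fold change of 0.20 in RL against CTL. The members' median on it was 0.24, 0 of 31 passed, and 11 had an unadjusted p under 0.05, where 21.7% of all tested genes did. Of the members 28 were above 0 on it, as were 80.7% of all tested genes. As a share of all counts, mitochondrially encoded genes included, the members took 0.177% ± 0.00650 in RL, 0.172% ± 0.00555 in CL and 0.176% ± 0.0344 in CTL (SD, n = 3 each), and these overlapped.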

How the data were processed

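Raw counts of reads on each gene, as the authors deposited them for 9 libraries, were the input of every test. GRCm38.p5 and DESeq2 are named per the submitters' processing notes; no source used here gives the aligner, the counting rules or the annotation. The log2 fold change, p-value and adjusted p-value columns of the authors' deposited tables were only read beside the results. The deposited normalised and regularised log values were not used.

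Members were matched by symbol, and 26 rows with date-like names were kept. Genes were tested with the quasi-likelihood method of edgeR 4.0.16 (R 4.3.3) and TMM factors, in 1 fit of all 9 libraries without covariates that pools the spread of the groups. The expression filter by group kept 14986 genes. Calls used a Benjamini-Hochberg adjusted p under 0.05. The SE was derived from the size of the log2 change and its F statistic, and the 95% interval uses the moderated degrees of freedom. DESeq2 1.42.0 and limma-voom (limma 3.58.1) were alternatives, with other scalings, no filter, fewer libraries and the replicate block. The fit was tested on simulated data.

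Per-library values are given for 14 members: those with an unadjusted p under 0.05 in any comparison, the one with the smallest p of each role in RL vs CTL, and Cpt1b, Cd36, Pdk4, Ucp3, Ppargc1a and Lpl. Of each further list the 2 genes with the smallest p are named. Members and lists were chosen with earlier results of these data known. The alternatives without TMM and without the mouse of CL 1 were added after the data were seen. CL and RL are paired by the mouse numbers in the labels, and deviations from the group means correlated at 0.29, 0.43 and 0.072 in the 3 pairs. The chi-square per degree of freedom between replicate libraries was at least 12.4, above counting noise. Depth was 30836057 to 44587520 counts per library. Exon lengths, overlaps and coordinates, 1-based, are from GENCODE vM21.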

Additional observations from a re-analysis of the deposited data

How the results depend on the processing

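The count of called fatty acid genes was 0 in RL vs CTL, CL vs CTL and RL vs CL under each of the 19 alternatives, with smallest adjusted p of 0.127, 0.272 and 0.663. Their median log2 fold change moved by less than the spread between replicates (0.14) except in RL vs CTL with nuclear totals and no TMM, where it was 0.24 and the median of all genes 0.20. The same scaling made 72 of 77 called genes higher in RL, against 50 of 77 with TMM. The spread of 0.14 exceeds the main medians (0.043, -0.049 and 0.067), and the sign of each changed under some alternatives. In RL vs CTL the median was -0.061 without CTL 1 and -0.0023 without RL 1. In CL vs CTL it was 0.015 without CL 1 or without CTL 2, and 0.085 with nuclear totals and no TMM. In RL vs CL it was -0.0093 without CL 1. Without the mouse of CL 1 and RL 1 the medians were -6.3e-06, 0.019 and -0.019, in that order. Counts over all genes moved more. In RL vs CTL, 77 with all libraries, they were 896 with no filter, 329 with DESeq2, 44 with limma-voom, 505 on the 6 libraries of the groups compared, 415 with the replicate block there, 291 without the mouse of CL 1 and RL 1, and 2 to 600 leaving out 1 library, the highest without CL 1. In CL vs CTL, where edgeR called 0 and 996 genes had an unadjusted p under 0.05, they were 716 with no filter, 16 with DESeq2 and 0 to 1 leaving out 1 library. In RL vs CL, 11 with all libraries, they were 406 with no filter, 39 with DESeq2, 4 on 6 libraries, 64 with the replicate block, 5 with nuclear totals, 20 without that mouse, and 1 to 136 leaving out 1 library, the highest without CL 1. The cause was not tested. In RL vs CTL and CL vs CTL the groups share a replicate number and no animal, with correlations of deviations from -0.17 to 0.053, and the block called 0 members there too.

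Of 756 log2 fold changes of 14 named members under 18 alternatives (all but that without the mouse of CL 1 and RL 1), 708 kept their sign and 48 changed it, 36 when 1 library was left out, and none was called. With nuclear totals and no TMM the sign changed in RL vs CTL for Acsl1 (0.013) and Ppara (0.12), in CL vs CTL for Slc27a1 (0.085), Cpt1b (0.073), Acads (0.098), Hadhb (0.12), Ech1 (0.099), Etfa (0.099) and Ppargc1a (0.0042), and in RL vs CL for Lpl (0.051), Cd36 (0.044) and Acsl1 (0.025). Leaving out 1 library gave both signs in RL vs CTL for Cd36 (-0.062 to 0.17), Ppara (-0.28 to 0.035), Ppargc1a (-0.082 to 0.32) and Ucp3 (-0.13 to 0.26). It did so in CL vs CTL for Slc27a1 (-0.15 to 0.029), Cpt1b (-0.23 to 0.20), Hadhb (-0.15 to 0.15), Ech1 (-0.16 to 0.13), Etfa (-0.094 to 0.022), Ppargc1a (-0.26 to 0.14) and Ucp3 (-0.18 to 0.17). In RL vs CL it did so for Lpl (-0.061 to 0.039), Cd36 (-0.15 to 0.082), Acsl1 (-0.079 to 0.034), Mlycd (-0.066 to 0.073), Hadhb (-0.018 to 0.27), Ppara (-0.031 to 0.22), Pdk4 (-0.048 to 0.18) and Ucp3 (-0.13 to 0.24). Cpt1b had the fewest counts of the members, at 26 to 49 per library.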
